A study of Homo sapiens with 6 samples.

Results

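The collagen genes are the genes that encode the chains of the triple-helical proteins of the extracellular matrix. They were taken by name: every gene of the deposited count table whose symbol is COL, a type number, A and a chain number was a member, with no use of any measured value. This gave 44 of the 38100 genes in the table. The cells were HK2, an established line of human proximal tubular epithelial cells, labelled wild type. In the AdCtrl group they had been infected with a control adenovirus that carried an empty vector, in the AdSirt4 group with an adenovirus that overexpresses SIRT4, a sirtuin deacylase best known from mitochondria, and both groups were stimulated with TGF-β1. Each group held 3 samples, these 6 samples are the whole series, and the comparison asks how gene expression under TGF-β1 changed when SIRT4 was overexpressed. No sample without TGF-β1 belongs to it, so the response of the collagen genes to TGF-β1 itself was not measured, and the dose and duration used for these libraries are not given in the sources used here.

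Collagen chains are made in the endoplasmic reticulum, where their prolines and lysines are hydroxylated and then wind into a triple helix. Different chains build different structures: fibrillar chains form the banded fibers of scar tissue, network chains form the sheet of the basement membrane under an epithelium, and other chains decorate fibrils or tie them to the basement membrane. TGF-β1 is a well-known inducer of collagen genes, and deposition of fibrillar collagen between the tubules is the hallmark of kidney fibrosis, while the tubular epithelium itself is a normal source of basement membrane collagen.

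The libraries held 41537353 to 85684748 counts. SIRT4, the overexpressed gene, had 31, 47 and 57 counts in the AdCtrl samples against 1996, 7995 and 6827 counts in the AdSirt4 samples, here and below in the order of replicates 1, 2 and 3, so every library fell on the side its label states. AdSirt4 replicate 1 stood apart from the other libraries by gene length: against the mean of AdSirt4 replicates 2 and 3, the tenth of genes with the shortest transcripts was higher in it by a median of 0.67 on the log2 scale and the tenth with the longest was lower by 0.74 (a median of -0.74). Most collagen transcripts are long, with a median of 7.33 kb for the members tested against 3.64 kb for all genes tested. The differences of most named genes are therefore given with and without AdSirt4 replicate 1. The markers of the labelled cell type were checked. All 5 epithelial markers (KRT8, KRT18, KRT19, CDH1 and EPCAM) were detected, at a summed 697 to 737 FPKM in AdCtrl and 667 to 923 in AdSirt4. Of 13 proximal tubule markers 7 were detected, at a summed 132 to 136 FPKM in AdCtrl and 110 to 134 in AdSirt4. LRP2, AQP1, ANPEP, SLC22A6, SLC22A8 and HNF4A were not detected, with SLC22A8 at 0. Of 8 fibroblast markers 5 were detected, at a summed 6.65 to 7.08 FPKM in AdCtrl and 6.10 to 8.19 in AdSirt4, without PDGFRA, DPT and FAP. Of 4 myofibroblast markers 3 were, at a summed 13.3 to 14.2 FPKM in AdCtrl and 15.2 to 22.3 in AdSirt4, with AdSirt4 replicate 1 the highest. Of the endothelial, leukocyte and podocyte markers, 1 of 4, 1 of 3 and 1 of 2 were detected. Of the leukocyte markers only CD68 was detected, while PTPRC was not and CD3E was at 0. The leukocyte sum, 17.0 to 19.2 FPKM in AdCtrl and 18.9 to 22.2 in AdSirt4, was above that of the fibroblast markers. The endothelial markers summed to 0.036 to 0.046 FPKM in AdCtrl and 0.017 to 0.068 in AdSirt4. The podocyte markers summed to 0.0053 to 0.027 FPKM in AdCtrl and 0.044 to 0.048 in AdSirt4. The part of these marker levels in the collagen results was not tested. In a bulk sample, more cells that express a gene and more RNA per cell cannot be told apart.

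Counts were found for a broad set of collagen genes in HK2 cells. A gene was called detected with 10 or more counts in at least 3 samples, which 31 of the 44 members reached, against 47.4% of all genes in the table. Levels are given as FPKM, which divides the counts by transcript length and library size, from the authors' second table. The highest mean level over the 6 samples was 272 FPKM (COL4A1) and the lowest among detected members was 0.014 FPKM (COL6A3). A mean of at least 1 FPKM was reached by 17 of the 44 members. Another 10 members had counts in some libraries without meeting the rule, with 1 to 44 counts summed over all samples and at most 15 in any library: COL1A2, COL2A1, COL4A6, COL5A3, COL6A6, COL9A1, COL13A1, COL19A1, COL20A1 and COL25A1. The 3 remaining members, COL3A1, COL6A5 and COL23A1, had 0 counts in all 6 libraries. Since 0 counts leave room for up to 3, the upper limit on each of them was 0.0350 to 0.0722 CPM in a single library, where CPM are counts scaled to library size alone. Just inside the rule were COL21A1 with 49 summed counts and COL6A3 with 66, and just outside were COL25A1 with 44 and COL19A1 with 43.

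**Figure D1:**
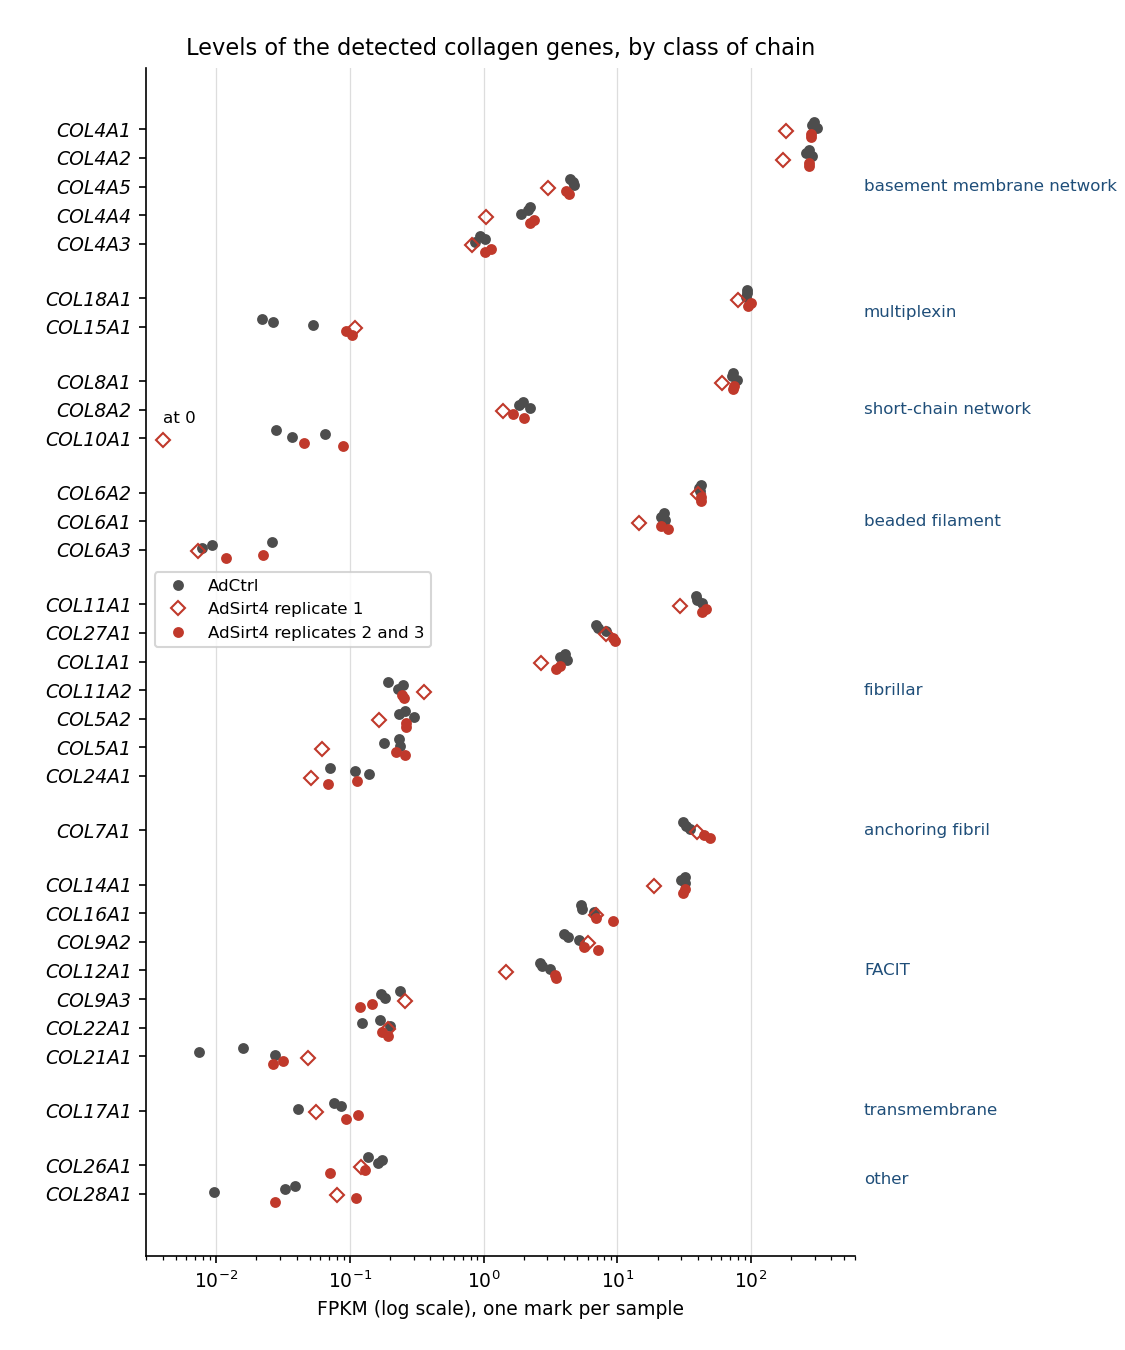
Level of the 31 detected collagen genes in FPKM on a log axis, with 1 mark per sample, grouped by the class of chain; COL10A1 at 0 in AdSirt4 replicate 1 is drawn at the left edge. COL4A1 and COL4A2 lie at the right, at 175 FPKM or more in every sample, and the open diamonds of AdSirt4 replicate 1 lie to the left of the other samples for most of the longer genes of high level.

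Basement membrane chains dominated. COL4A1 and COL4A2, the pair of chains found in nearly every basement membrane, ranked 1 and 2, and the 6 chains of type IV collagen made up 53.8% to 61.6% of the summed collagen FPKM. COL4A1 stood at 297, 284 and 310 FPKM in AdCtrl and at 183, 281 and 279 FPKM in AdSirt4 replicates 1, 2 and 3. COL4A2 stood at 273, 258 and 286 FPKM in AdCtrl and at 175, 273 and 273 in AdSirt4. In both genes AdSirt4 replicate 1 was far below the 5 others, and COL4A1 was above COL4A2 in every library, by less than the spread between libraries. The chains of the specialized basement membrane of the glomerulus and some tubules, in which inherited defects cause Alport syndrome, were lower by far, with means over all samples of 4.22 FPKM for COL4A5, 1.99 for COL4A4 and 0.972 for COL4A3. COL4A6 was not detected, with 15 counts in all.

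The genes of this family lie head to head in pairs, with their starts facing away from each other. COL4A1 (chr13:110148963-110307157, RefSeq annotation of GRCh38.p14, minus strand) and COL4A2 (chr13:110307284-110513209, plus strand) have only 126 bases between their starts, a stretch shown because the chains of highest level share it. In the RefSeq promoter table, COL4A5 and COL4A6 start 379 bases apart and COL4A3 and COL4A4 start 418 bases apart. The gene coordinates put the last pair closer, with COL4A4 starting at chr2:227164488 and COL4A3 at chr2:227164624. The stretch between COL4A1 and COL4A2 is chr13:110307158-110307283, written on the plus strand, with capitals for a GC box (GGGCGG on either strand, the letters known as a site of Sp1) and a CCAAT box (CCAAT on either strand).

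COL4A1 to COL4A2: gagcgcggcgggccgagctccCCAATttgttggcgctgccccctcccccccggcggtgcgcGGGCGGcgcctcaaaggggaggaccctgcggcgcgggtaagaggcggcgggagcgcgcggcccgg

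It held 1 GC box and 1 CCAAT box and no match to the AP-1 letters TGANTCA. Over all 35116 promoter windows of the RefSeq table, from 250 bases before to 50 after a start, 42.6% held a GC box, 32.0% a CCAAT box and 6.57% the AP-1 letters. Of the 44 collagen genes 32 had a window in that table, and 21, 11 and 1 of them held these motifs. A gene with several windows was counted when any of them held the motif, so these counts of genes and the shares of single windows are unlike measures. Such matches describe letters and show no binding.

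The next levels belonged to other chains of the basement membrane zone and to a short-chain network. COL18A1, a heparan sulfate proteoglycan of basement membranes and the precursor of endostatin, was 3rd in level, at 93.3, 93.5 and 92.3 FPKM in AdCtrl and 79.8, 100.2 and 95.0 FPKM in AdSirt4. COL8A1, a short-chain collagen that forms hexagonal networks, was 4th, at 73.2, 72.3 and 79.0 FPKM in AdCtrl and 60.5, 75.2 and 73.1 FPKM in AdSirt4. The 3 members of the short-chain class were all detected, but at unlike levels: the partner chain COL8A2 had a mean of 1.85 FPKM and COL10A1, known from hypertrophic cartilage, 0.044. COL7A1, whose product forms the fibrils that anchor epithelial basement membrane to the stroma, ranked 7th with a mean of 38.7 FPKM, and COL17A1, a transmembrane chain of hemidesmosomes, had 0.078 FPKM.

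Fibrillar collagens, the chains of scar tissue, were expressed in an incomplete set. COL11A1, a minor fibrillar chain known from cartilage, was the highest of the 11 members of the class, at 39.0, 39.2 and 42.9 FPKM in AdCtrl and 29.6, 46.3 and 43.0 FPKM in AdSirt4. COL27A1 followed with a mean of 8.24 FPKM and COL1A1, the main chain of type I collagen and a usual marker of fibrosis, with 3.65. Only 3 counts of COL1A2, its usual partner, were seen, all in AdSirt4 replicate 2, beside 8464 counts of COL1A1. COL3A1, the other classical interstitial collagen, was at 0 in all 6 libraries. COL5A2 and COL5A1, chains that help start fibrils, had means of 0.248 and 0.199 FPKM, COL11A2 had 0.255 and COL24A1 0.092, while COL2A1 and COL5A3 were not detected. The whole class made up 5.42% to 6.30% of the summed collagen FPKM.

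Type VI collagen, which forms beaded filaments around cells, showed the same kind of gap. COL6A2 ranked 5th, at 42.1, 40.7 and 41.3 FPKM in AdCtrl and 40.5, 42.2 and 42.2 FPKM in AdSirt4, a gene whose level hardly moved in any library. COL6A1 ranked 9th, at 22.3, 21.1 and 22.7 FPKM in AdCtrl and 14.4, 21.2 and 23.8 FPKM in AdSirt4. COL6A3, the large chain of the same heterotrimer, had 17, 5 and 5 counts in AdCtrl and 4, 23 and 12 counts in AdSirt4. Its level per length was 0.000347 to 0.00117 times that of COL6A1.

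The chains that sit on the surface of fibrils, called FACIT collagens, were led by COL14A1, at 32.0, 29.9 and 31.9 FPKM in AdCtrl and 18.8, 31.9 and 30.8 FPKM in AdSirt4. Below it came COL16A1 with a mean of 6.78 FPKM, COL9A2 with 5.38 and COL12A1 with 2.82. The partners of COL9A2 in type IX collagen were far lower: COL9A3 had 0.186 FPKM and COL9A1 was not detected, with 14 counts in all. COL22A1 and COL21A1 were detected at 0.175 and 0.026 FPKM, and COL19A1 and COL20A1 were not detected. COL26A1 and COL28A1, which belong to none of the larger classes, had 0.132 and 0.050 FPKM.

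The difference between the groups was tested on the counts by edgeR's quasi-likelihood test, with Benjamini-Hochberg adjustment over all genes tested. Enough counts for a test were found for 29 members; COL6A3 and COL21A1 were detected but had too few. With all 6 samples no collagen gene passed an adjusted p of 0.05 (0 of 29, with 0.0113% of all 17720 genes tested passing). At an unadjusted p under 0.05, where edgeR passed 4.43% of all genes as higher and 3.5% as lower in AdSirt4, 4 members were higher and 0 lower: COL7A1, COL9A2, COL15A1 and COL16A1. Both counts are given because so few genes of any kind passed the adjusted test. Of the 29 members 14 had a fold change above 0 on the log2 scale and 15 below, and their median was -0.013, beside 0.021 for all genes tested. With DESeq2, COL7A1, COL9A2 and COL15A1 had adjusted p-values under 0.05, of 0.000258, 0.0293 and 0.0415, where 0.7% of all genes were higher at that threshold. Counts below are CPM after TMM scaling of the libraries, and groups are described as not overlapping when every AdSirt4 sample lay on the same side of every AdCtrl sample.

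COL7A1, the anchoring fibril chain, was the clearest member. Its gene lies on the minus strand at chr3:48564073-48595329. It had 318, 332 and 346 CPM in AdCtrl and 438, 450 and 493 CPM in AdSirt4 replicates 1, 2 and 3. All 3 AdSirt4 samples were above all AdCtrl samples, with means of 332 ± 13.6 and 460 ± 28.7 CPM (SD, n = 3 each). The log2 fold change was 0.47 (SE 0.11), a 1.39-fold higher level, with an edgeR adjusted p of 0.494. Without AdSirt4 replicate 1 it was 0.50 (SE 0.057), with an edgeR adjusted p of 0.00127. At 10.2 kb COL7A1 has among the longest transcripts of the family, and its value in AdSirt4 replicate 1 was only 0.11 below the mean of the others on the log2 scale (a deviation of -0.11), where genes of like length had a median deviation of -0.62.

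COL9A2, a FACIT chain known from cartilage, and COL16A1, a FACIT chain of many tissues, differed by a like amount. COL9A2 (chr1:40300489-40317286, minus strand) had 13.1, 14.1 and 15.6 CPM in AdCtrl and 21.0, 18.2 and 22.6 CPM in AdSirt4. COL16A1 (chr1:31652263-31704017, minus strand) had 32.2, 33.3 and 38.6 CPM in AdCtrl and 45.6, 41.7 and 54.9 CPM in AdSirt4. The groups did not overlap in either gene, and AdSirt4 replicate 1 lay between the other AdSirt4 samples in both. For COL9A2 the log2 fold change was 0.53 (SE 0.12), or 1.44-fold, with an edgeR adjusted p of 0.494 in all samples. Without AdSirt4 replicate 1 it was 0.51 (SE 0.10), with an edgeR adjusted p of 0.0184. For COL16A1 the log2 fold change was 0.45 (SE 0.14), or 1.37-fold, with an edgeR adjusted p of 0.534 in all samples. Without that library it was 0.47 (SE 0.12), with an edgeR adjusted p of 0.0579. COL16A1 therefore passed only the unadjusted test in edgeR.

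COL15A1, a close relative of COL18A1 that bridges basement membrane to fibrils, had the largest fold change and few counts. The gene lies on the plus strand at chr9:98943907-99070787. It had 8, 8 and 17 counts in AdCtrl and 30, 52 and 54 counts in AdSirt4, or 0.148, 0.188 and 0.331 CPM against 0.769, 0.603 and 0.664 CPM. The groups did not overlap, and the highest AdSirt4 sample was replicate 1. COL15A1 had enough counts for a test only through the AdSirt4 samples, where it is high. With 10 counts required in every sample it was not tested. Of the 26 members then tested, 3 in place of 4 had an unadjusted edgeR p under 0.05, where 8.45% of all 15894 genes passed. The log2 fold change was 1.59 (SE 0.36), or 3.01-fold, with an edgeR adjusted p of 0.494 in all samples. Without AdSirt4 replicate 1 it was 1.49 (SE 0.39), with an edgeR adjusted p of 0.0457. Even in AdSirt4 the mean level was 0.102 FPKM, beside 91.6 FPKM for COL18A1, which had a log2 fold change of 0.0058 (SE 0.11).

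The 250 bases before the start of each of these 4 genes are shown because they are the members that passed the unadjusted test together. They are written in the direction of the gene, from RefSeq and GRCh38.p14, at chr3:48595330-48595579 for COL7A1, chr1:40317287-40317536 for COL9A2, chr9:98943657-98943906 for COL15A1 and chr1:31704018-31704267 for COL16A1. Capitals mark GC boxes on either strand.

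COL7A1: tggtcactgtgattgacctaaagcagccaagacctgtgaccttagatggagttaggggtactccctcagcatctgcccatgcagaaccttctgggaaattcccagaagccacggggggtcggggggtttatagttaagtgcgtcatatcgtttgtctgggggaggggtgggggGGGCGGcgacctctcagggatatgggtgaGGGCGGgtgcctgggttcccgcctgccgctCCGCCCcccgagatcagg
COL9A2: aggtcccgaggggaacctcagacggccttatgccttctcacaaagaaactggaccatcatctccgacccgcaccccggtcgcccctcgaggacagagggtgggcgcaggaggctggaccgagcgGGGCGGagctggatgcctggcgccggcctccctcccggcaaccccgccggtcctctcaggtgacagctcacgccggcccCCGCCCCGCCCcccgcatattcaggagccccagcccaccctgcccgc
COL15A1: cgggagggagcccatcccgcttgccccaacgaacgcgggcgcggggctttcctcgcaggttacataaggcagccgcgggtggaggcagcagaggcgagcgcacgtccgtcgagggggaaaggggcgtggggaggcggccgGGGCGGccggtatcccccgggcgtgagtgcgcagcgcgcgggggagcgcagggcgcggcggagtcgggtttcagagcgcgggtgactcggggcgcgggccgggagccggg
COL16A1: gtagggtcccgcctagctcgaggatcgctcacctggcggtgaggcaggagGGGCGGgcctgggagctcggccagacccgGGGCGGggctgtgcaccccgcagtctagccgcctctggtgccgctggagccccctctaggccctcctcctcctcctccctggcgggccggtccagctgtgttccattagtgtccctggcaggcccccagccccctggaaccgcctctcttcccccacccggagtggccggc

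COL7A1 and COL9A2 held 3 GC boxes each, COL16A1 held 2 and COL15A1 held 1, with a pair in COL9A2 that overlaps by 1 base. None of the 4 stretches held CCAAT or the AP-1 letters. As given above, 42.6% of all promoter windows hold a GC box.

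**Figure D2:**
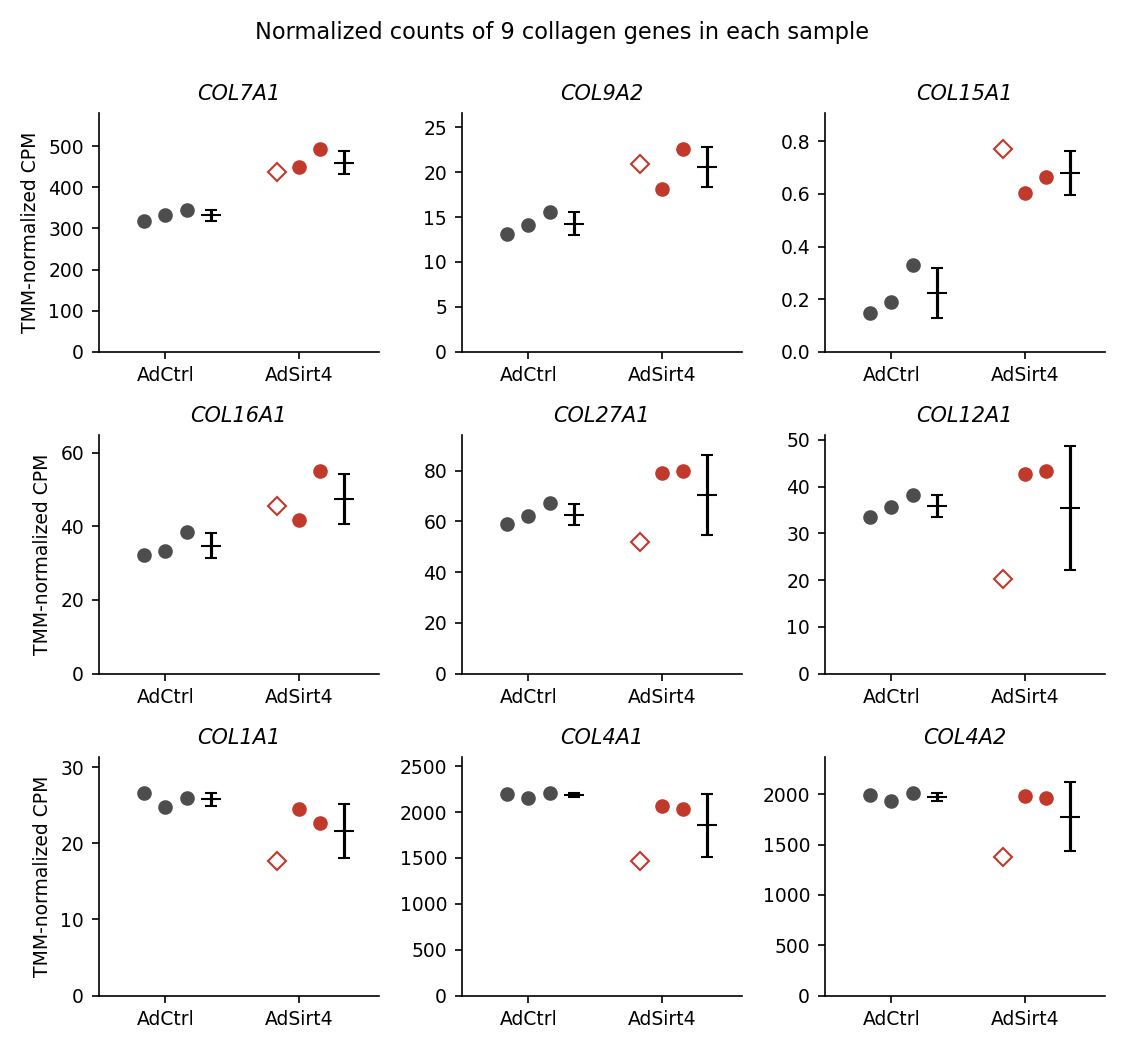
TMM-normalized CPM of 9 collagen genes in each sample, with mean and SD beside the 3 samples of each group and axes that start at 0. COL7A1, COL9A2, COL15A1 and COL16A1 are higher in all AdSirt4 samples, and in COL27A1, COL12A1, COL1A1, COL4A1 and COL4A2 AdSirt4 replicate 1 (open diamond) is the lowest sample.

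COL27A1 and COL12A1 passed the adjusted test of edgeR only when AdSirt4 replicate 1 was left out. COL27A1, a fibrillar chain of cartilage matrix (chr9:114154098-114312511), had 58.8, 62.1 and 67.1 CPM in AdCtrl and 52.0, 79.1 and 79.7 CPM in AdSirt4. COL12A1, a FACIT chain of tendon and other strained tissues (chr6:75084326-75206053), had 33.6, 35.6 and 38.2 CPM in AdCtrl and 20.2, 42.8 and 43.2 CPM in AdSirt4. In both genes AdSirt4 replicate 1 was below all AdCtrl samples while the other AdSirt4 samples were above them all. With all samples the log2 fold change was 0.17 (SE 0.17) for COL27A1 and -0.013 (SE 0.28) for COL12A1, with edgeR adjusted p-values of 0.789 and 0.987. Without AdSirt4 replicate 1 it was 0.34 (SE 0.058) and 0.26 (SE 0.066), with edgeR adjusted p-values of 0.0101 and 0.0411. When the length trend was removed as well, COL27A1 kept its call (adjusted p 0.0073 in edgeR) and COL12A1, the longest member tested, lost it, at 0.19 and an edgeR adjusted p of 0.0752. The scale matters for COL27A1: in FPKM, AdSirt4 replicate 1 stood at 8.18 beside 6.89 to 8.22 in AdCtrl, and the transcript length implied by counts and FPKM together was 5.97 kb in that library and 8.36 to 8.77 kb in the others.

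With AdSirt4 replicate 1 left out, 5 of the 30 members then tested had an edgeR adjusted p under 0.05, all higher in AdSirt4: COL7A1, COL9A2, COL12A1, COL15A1 and COL27A1. Of all genes 3.37% were higher and 3.34% lower at that threshold, and 0 members were lower. The median log2 fold change of the members was then 0.12. Weighting each library by its quality with limma voom, in place of leaving 1 out, also called 5 members higher, COL7A1, COL9A2, COL15A1, COL16A1 and COL27A1, where 4.62% of all genes were higher. After removal of each library's trend on gene length, 5 members were higher and 2 lower (COL1A1 and COL4A1) at an unadjusted edgeR p under 0.05, beside 4 and 0 without that removal, and 13.9% of all genes passed in either direction. With the replicate number as a block in that fit, 6 were higher and 0 lower, where 13.9% of all genes passed in either direction. COL1A1 and COL4A1 then had unadjusted edgeR p-values of 0.0725 and 0.0974, and COL28A1 joined the higher ones at 0.0243. COL28A1 had 6 to 58 counts per library, and its implied transcript length differed 1.96-fold between libraries.

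**Figure D3:**
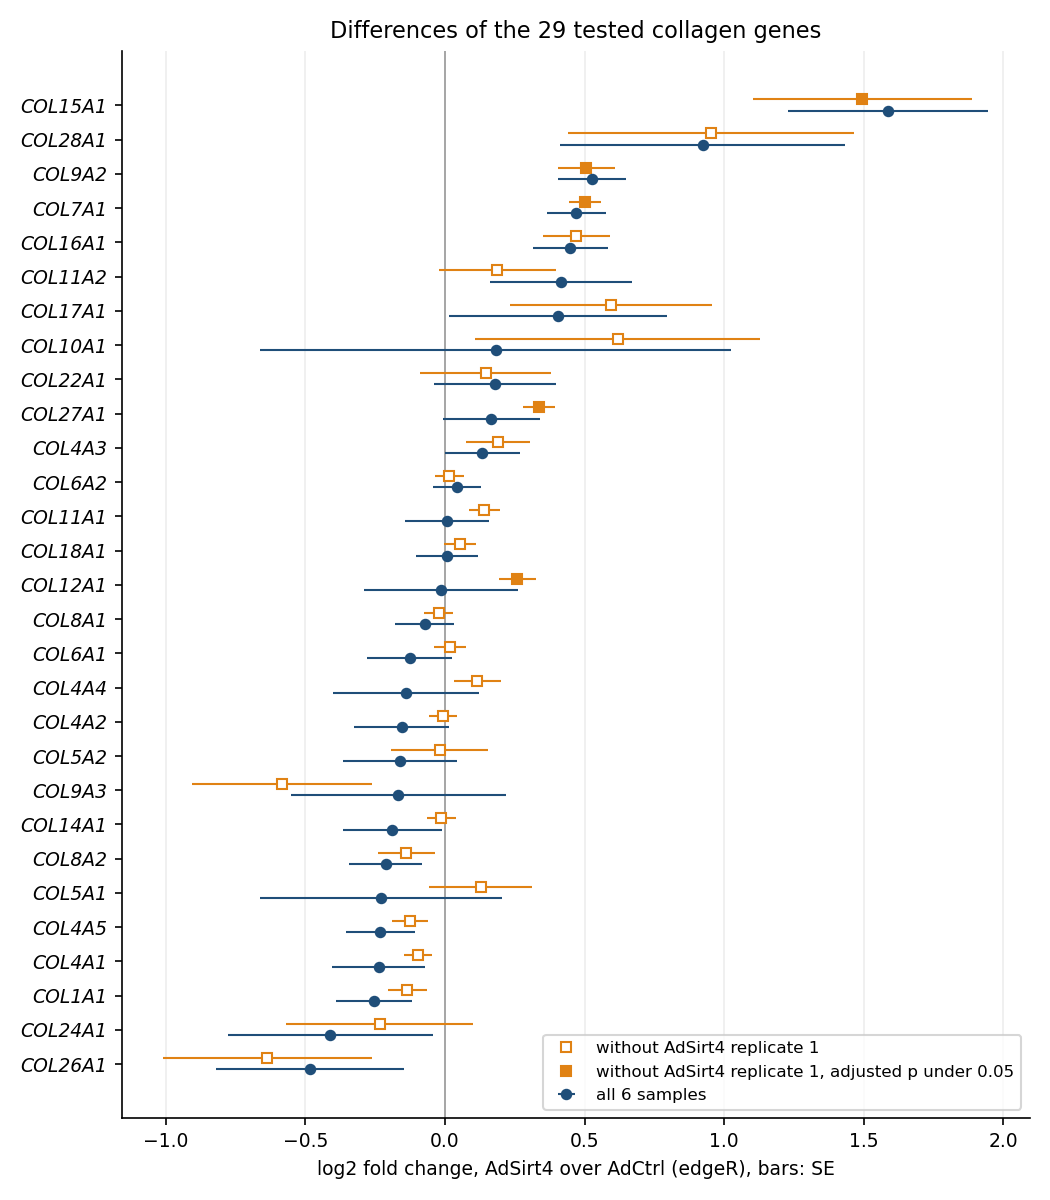
Log2 fold change of AdSirt4 over AdCtrl for the 29 tested collagen genes with its SE from edgeR, in all 6 samples (circles) and without AdSirt4 replicate 1 (squares, filled where the adjusted p was under 0.05). COL15A1, COL9A2, COL7A1 and COL16A1 lie between 0.45 and 1.59 in both fits, and COL12A1 moves from -0.013 to 0.26.

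The fibrosis marker COL1A1 and the most abundant chains were not higher in AdSirt4. COL1A1 (chr17:50184101-50201631) had 26.5, 24.8 and 26.0 CPM in AdCtrl and 17.6, 24.4 and 22.7 CPM in AdSirt4. All AdSirt4 samples were below all AdCtrl samples in CPM, while in FPKM the groups overlapped, at 3.71 to 4.195 in AdCtrl and 2.69 to 3.75 in AdSirt4. The log2 fold change of -0.25 (SE 0.14) had an edgeR adjusted p of 0.701, and without AdSirt4 replicate 1 it was -0.14 (SE 0.070) with an adjusted p of 0.260. COL3A1 had no counts to compare. COL4A1 had 2199, 2156 and 2203 CPM in AdCtrl and 1462, 2066 and 2033 CPM in AdSirt4, again without overlap, and its log2 fold change was -0.24 (SE 0.17), or -0.097 (SE 0.049) without AdSirt4 replicate 1, with edgeR adjusted p-values of 0.739 and 0.253. COL4A2 had 1989, 1933 and 2008 CPM in AdCtrl and 1381, 1986 and 1959 CPM in AdSirt4, and its log2 fold change was -0.16 (SE 0.17) in all samples and -0.0077 (SE 0.050) without AdSirt4 replicate 1, with edgeR adjusted p-values of 0.796 and 0.946. COL4A5 was also lower in all AdSirt4 samples, at 24.1, 30.2 and 31.8 CPM beside 32.8 to 35.1 in AdCtrl, with a log2 fold change of -0.23 (SE 0.12) in all samples and -0.13 (SE 0.064) without AdSirt4 replicate 1, and edgeR adjusted p-values of 0.701 and 0.253. The groups thus did not overlap in 4 members that were higher and 3 that were lower in AdSirt4, where 9.66% and 9.77% of all genes tested did not overlap in those directions.

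For most other abundant chains the difference was small beside its error. Without AdSirt4 replicate 1 the log2 fold change was 0.052 (SE 0.057) for COL18A1, -0.023 (SE 0.051) for COL8A1, 0.015 (SE 0.052) for COL6A2, 0.019 (SE 0.057) for COL6A1, -0.014 (SE 0.052) for COL14A1 and 0.14 (SE 0.056) for COL11A1. The edgeR adjusted p for COL11A1 was 0.153, the lowest of these 6. With all samples it was 0.0058 (SE 0.11) for COL18A1, -0.072 (SE 0.11) for COL8A1, 0.043 (SE 0.087) for COL6A2, -0.13 (SE 0.15) for COL6A1, -0.19 (SE 0.18) for COL14A1 and 0.0058 (SE 0.15) for COL11A1. The sign for COL6A1 thus depended on AdSirt4 replicate 1, and AdSirt4 replicate 1 was the lowest AdSirt4 sample in 5 of the 6. Among the 11 tested members under 5 CPM the fold changes were wide and uncertain, from -0.48 (SE 0.34) for COL26A1 to 0.92 (SE 0.51) for COL28A1 when COL15A1 is set aside.

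The summed collagen level did not separate the groups. Over all 44 members it was 937, 906 and 980 FPKM in AdCtrl and 674, 956 and 954 FPKM in AdSirt4 (941 ± 37.0 and 861 ± 162, SD, n = 3 each). AdSirt4 replicate 1 alone lay below the AdCtrl range. The difference of the groups was -0.13 on the log2 scale (2-sided exact permutation test, p = 0.7), and 0.021 without AdSirt4 replicate 1 (p = 0.8). With 3 samples against 3 the smallest p this test can give is 0.1, and with 3 against 2 it is 0.2. The make-up moved slightly: COL4A1 and COL4A2 together supplied 60.8%, 59.9% and 60.8% of collagen FPKM in AdCtrl and 53.1%, 58.0% and 57.9% in AdSirt4, without overlap (exact permutation test, p = 0.1, the smallest possible). COL7A1, by contrast, supplied 3.33%, 3.60% and 3.59% in AdCtrl and 5.81%, 4.68% and 5.18% in AdSirt4.

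**Figure D4:**
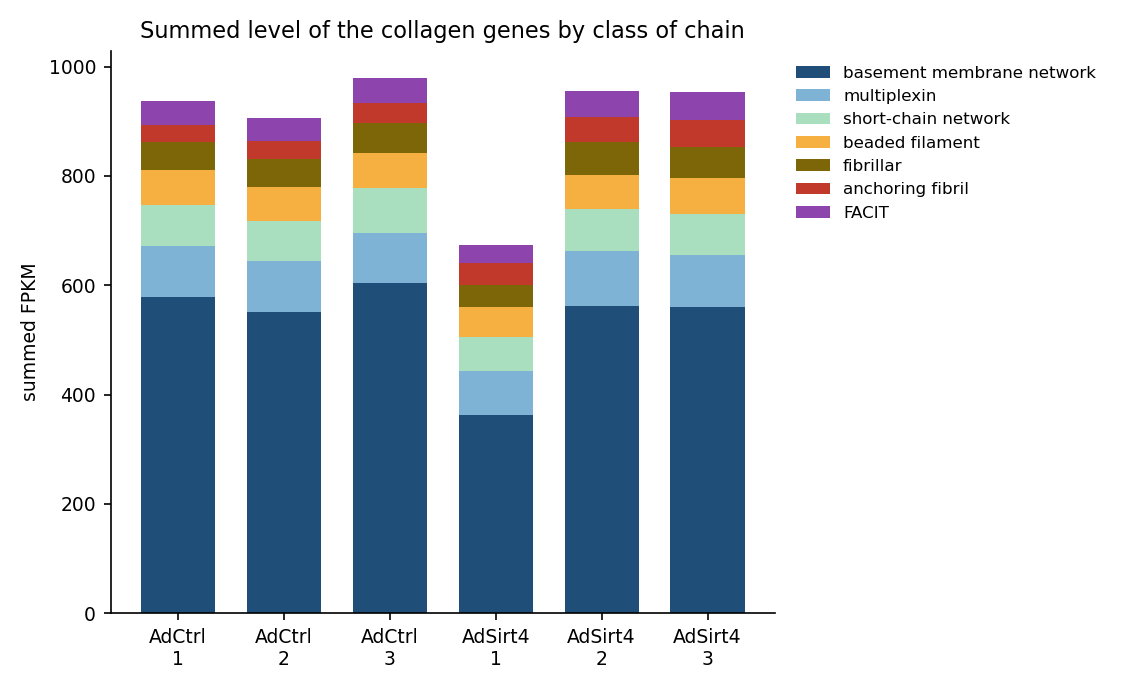
Summed FPKM of the collagen genes in each sample, stacked by class of chain (the transmembrane and other classes, at most 0.241 FPKM each, are left out). The basement membrane network is the largest block in every sample, and the total of AdSirt4 replicate 1 is 674 FPKM, below the 906 to 980 FPKM of AdCtrl.

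The balance between partner chains was compared for 5 pairs by a 2-sided exact permutation test on the log2 ratio of their FPKM. The ratio of COL4A1 to COL4A2 was 1.091, 1.101 and 1.082 in AdCtrl and 1.04, 1.03 and 1.02 in AdSirt4. It was lower in all AdSirt4 samples, AdSirt4 replicate 1 included, by 0.081 on the log2 scale (a difference of -0.081, p = 0.1 in the exact test, 0.5 after adjustment over the 5 pairs). The ratio of COL6A1 to COL6A2 was 0.529, 0.517 and 0.549 in AdCtrl and 0.357, 0.503 and 0.564 in AdSirt4, and that of COL8A1 to COL8A2 was 37.0, 39.2 and 35.6 in AdCtrl and 43.2, 45.0 and 36.6 in AdSirt4. The ratio of COL5A1 to COL5A2 was 0.780 to 0.902 in AdCtrl and 0.370, 0.831 and 0.983 in AdSirt4. In these pairs and in COL6A3 with COL6A1 the groups overlapped, with adjusted p-values of 0.75 to 0.9 by the exact test.

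Collagen genes followed the length pattern of AdSirt4 replicate 1. In that library 21 of the 29 tested members were below the mean of AdSirt4 replicates 2 and 3 and 8 were above, with a median deviation of -0.36 on the log2 scale. The 9 members with transcripts of 8 kb or more had a median deviation of -0.61 and the 20 shorter ones -0.16. Spearman's rho between transcript length and deviation was -0.49 over the 29 members, all measured in the same libraries. Set against genes of like length (within 10%), 15 members were below the median and 14 above. COL12A1, at 12.7 kb the longest member tested, deviated by -1.09 and COL4A4, at 10.8 kb, by -1.004, while COL9A2 and COL6A2, at 3.25 and 3.88 kb, deviated by 0.051 and 0.069. The lowest deviations did not belong to the longest members. They were -3.15 for COL10A1, at 4.33 kb and with 0 counts in that library, and -1.77 for COL5A1, at 9.66 kb. COL9A3, at 3.33 kb, had the highest deviation, of 1.04, and COL11A2, at 7.60 kb, deviated by 0.62.

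**Figure D5:**
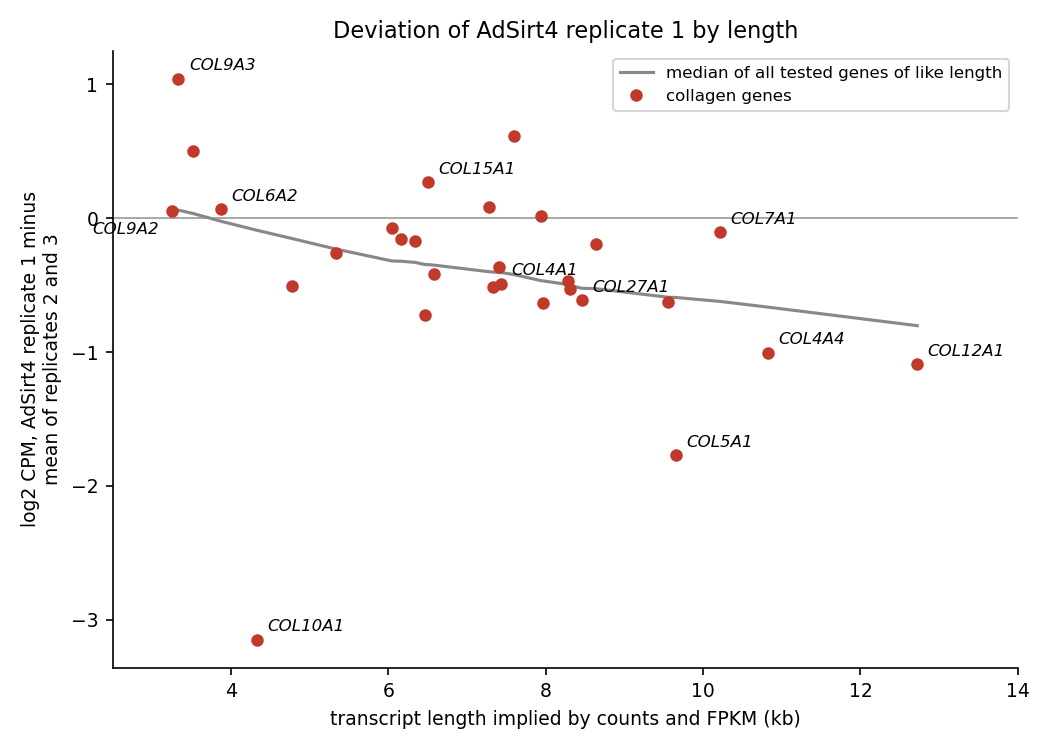
Log2 CPM (with a prior count of 2) in AdSirt4 replicate 1 minus the mean of AdSirt4 replicates 2 and 3 for each tested collagen gene, against transcript length in kb, with the median of all tested genes of like length as a line. Of the 29 points 15 lie below and 14 above the line, and COL7A1 lies 0.11 below 0, well above the line at 10.2 kb.

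Genes that make and handle collagen were taken from a list of 52 genes in 6 roles. Of these 44 were tested, and with all samples 0 passed the edgeR adjusted test, while 4 were higher and 2 lower at an unadjusted p under 0.05, where, as above, 4.43% and 3.5% of all genes were. With the replicate block 3 were higher and 1 lower, where 7.20% of all genes passed in either direction. PLOD2 and FKBP14 then had unadjusted edgeR p-values of 0.0745 and 0.0808. The genes named next are those of the fit without the block. The higher ones were P4HA1 and P4HA2, catalytic subunits of the prolyl hydroxylases that stabilize the helix, PLOD2, a lysyl hydroxylase that prepares cross-links, and MMP1, the interstitial collagenase. The lower ones were CREB3L1, a transcription factor held in the membrane of the endoplasmic reticulum, and FKBP14, a chaperone of the endoplasmic reticulum. In all samples PLOD2 was 1.21-fold higher, and CREB3L1 and FKBP14 were at 0.784 and 0.844 times the AdCtrl level. Without AdSirt4 replicate 1 FKBP14 was at 0.876 times that level, with an edgeR adjusted p of 0.0791. These genes are named for their values.

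P4HA1 had 96.9, 110.4 and 93.4 CPM in AdCtrl and 178, 147 and 132 CPM in AdSirt4, a 1.52-fold higher level. P4HA2 had 40.02, 37.1 and 43.95 CPM in AdCtrl and 53.9, 52.5 and 59.2 CPM in AdSirt4, or 1.37-fold. MMP1 had 5.10, 3.98 and 4.73 CPM in AdCtrl and 7.03, 6.48 and 9.68 CPM in AdSirt4, or 1.68-fold. In each of these the groups did not overlap, as in 9.66% of all genes tested with AdSirt4 higher. They were picked by p-values from the same samples, so the lack of overlap is no separate support. The edgeR adjusted p was 0.494 for each in all samples. Without AdSirt4 replicate 1 P4HA1 was 1.39-fold, P4HA2 1.38-fold, MMP1 1.74-fold and PLOD2 1.20-fold higher. The edgeR adjusted p was then 0.00802 for both prolyl hydroxylase subunits, 0.0238 for MMP1 and 0.0216 for PLOD2. These were the 4 of 46 genes called higher, beside 3.37% of all genes called higher and 3.34% called lower. The 3 called lower without that library were P3H1 and P3H4, of the prolyl 3-hydroxylase family, and CREB3L1, at 0.873, 0.856 and 0.819 times the AdCtrl level with edgeR adjusted p-values of 0.0467, 0.0411 and 0.0419. Among the 6 cross-linking genes, the 6 tested for propeptide cleavage and the 5 tested collagen receptors, none passed at an unadjusted edgeR p under 0.05 in all samples, nor at an adjusted p under 0.05 without AdSirt4 replicate 1. The collagen chaperone SERPINH1 had 565, 549 and 507 CPM in AdCtrl and 584, 498 and 461 CPM in AdSirt4, which overlapped.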

How the data were processed

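RNA was sequenced from 3 AdCtrl and 3 AdSirt4 samples of HK2 cells, grouped by the sample titles. The cell-line label carries a rising number from sample to sample, and all samples were taken as HK2 because every title and the study's methods say so. The authors deposited whole-number counts per gene that were not normalized. Their other table covers the same genes, and its unit is not named. It was read as FPKM made by the authors, from its totals and from the nearly constant gene length that counts and values imply together. Per the labels, fastp 0.21.0, HISAT2 2.1.0, StringTie 2.1.5 and DESeq2 1.30.1 were used with build hg38, and which tool wrote which table is not given in the sources used here. The study's reporting form says that n in vitro means technical replicates. If this covers these samples, SDs and p-values describe technical spread only.

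Counts were tested with edgeR 4.0.16 in R 4.3.3 (filterByExpr with a minimum count of 10, TMM, robust quasi-likelihood test, Benjamini-Hochberg adjustment over all genes tested, threshold 0.05). The study's own processing names DESeq2, and DESeq2 1.42.0 was used as an alternative, with limma 3.58.1 on log2(FPKM + 1) and log2(FPKM + 0.1) and limma voom. The script was tested on simulated counts. Totals and chain ratios were compared with exact permutation tests in scipy 1.17.1. Transcript length was taken from counts and FPKM, and its trend in each library was fitted with lowess (span 0.3) over all genes. Coordinates and promoter windows are from RefSeq on GRCh38.p14, matched by symbol. All 44 members matched for coordinates and 32 for promoter windows.

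Members with a value in every sample are the 12 of highest mean FPKM, any with an unadjusted p under 0.05, any with an adjusted p under 0.05 without AdSirt4 replicate 1, COL1A1 and COL3A1, and both chains of each pair. COL4A5 and the modifying enzymes named were added after their values were seen. The collagen genes, the classes, the list of 52 genes and the marker lists were chosen with earlier results of these data known. Same-numbered samples deviated from their group means together, with Pearson's r across genes of 0.178, 0.159 and 0.176, beside -0.188 to 0.030 for other pairs, so the replicate number was used as a block in an alternative. No replicate was a copy of another. Counts of 2 were commoner than counts of 1 in every library, as when both mates of a pair are counted, so limits for a count of 0 cover counting error only and are optimistic.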

Additional observations from a re-analysis of the deposited data

How the results depend on the processing

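The number of detected members was 28 to 31 with a sample left out. It was 33 with a minimum of 5 counts in at least 3 samples and 27 with a minimum of 20. With 10 or more counts required in all 6 samples it was 26. No collagen gene passed an adjusted p under 0.05 with all samples in edgeR (0), beside 3 with DESeq2, 5 with voom sample quality weights, 4 without AdSirt4 replicate 1 and with the length trend removed (an alternative chosen after seeing the data) and 0 to 5 with each sample left out, where the 5 came without AdSirt4 replicate 1. At an unadjusted p under 0.05 there were 4 members, beside 7 with the length trend removed, 11 with voom weights, 9 without AdSirt4 replicate 1 and with the length trend removed, 1 with limma on log2(FPKM + 1), 1 with that test and the replicate block, and 3 to 7 with a sample left out. The share of all genes moved with these counts, from 7.93% in the edgeR fit of all samples to 13.9% with the length trend removed, 26.9% with voom weights, 24.3% without AdSirt4 replicate 1, with or without the trend removed, 1.005% with limma on log2(FPKM + 1) and 0.903% with its replicate block. The fits with another sample left out passed 3.701% to 8.35% of all genes. The lowest share came without AdCtrl replicate 1 (3 members) and the highest without AdSirt4 replicate 3 (5 members). By adjusted p the share was 0.0113% in the edgeR fit of all samples. It was 1.16% with DESeq2, 8.74% with voom weights, 6.71% without AdSirt4 replicate 1 and 7.58% with the trend removed as well. The replicate block in edgeR gave 0 members by adjusted p and 4 by unadjusted p, beside 0.00564% and 7.20% of all genes. It changed no call of a collagen gene. Added to the length trend removal, where 13.9% of all genes passed the unadjusted test, the block took away the calls of COL1A1 and COL4A1 and gave that of COL28A1. The cause of these shifts was not tested.

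The median log2 fold change of the tested members was -0.10 to 0.12 with a sample left out. The summed collagen level differed by -0.13, by 0.0057 without COL4A2 and COL4A1 and by -0.21 to 0.021 with a sample left out. The log2 ratio differed by -0.089 to -0.074 for COL4A1/COL4A2, -0.57 to 0.13 for COL5A1/COL5A2, -0.33 to 0.0023 for COL6A1/COL6A2, -0.16 to 0.72 for COL6A3/COL6A1 and 0.097 to 0.24 for COL8A1/COL8A2 with a sample left out.

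Among the members given in every sample, signs turned only where the difference in all samples was within its SE. COL18A1 was at -0.028 in the limma fits and at -0.041 to 0.052 with a sample left out. COL8A1 was at 0.0055 with the length trend removed and at 0.0035 with the replicate block added. COL11A1 was at -0.011 with the replicate block, at -0.048 in limma on log2(FPKM + 1), -0.050 on log2(FPKM + 0.1) and -0.10 to 0.14 with a sample left out. COL6A1 ranged from -0.25 to 0.019 with a sample left out and was at 0.013 with the length trend removed as well. COL12A1 was at 0.082 with the length trend removed, 0.072 with the block as well, 0.26 with voom weights, 0.19 without AdSirt4 replicate 1 and with the length trend removed, and -0.18 to 0.26 with a sample left out. COL5A1 was at 0.053 with voom weights, 0.077 without AdSirt4 replicate 1 and with the trend removed, and -0.56 to 0.13 with a sample left out. COL7A1 (0.42 to 0.50), COL9A2 (0.45 to 0.61), COL15A1 (1.36 to 2.00) and COL16A1 (0.33 to 0.54) were higher in AdSirt4 with any sample left out.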

Other observations

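The count table holds 7 further rows named after collagen genes, for antisense or divergent transcripts, which the rule for members leaves out. COL4A2-AS1 had 21, 31 and 28 counts in AdCtrl and 9, 63 and 78 in AdSirt4 replicates 1, 2 and 3, and COL18A1-AS1 had 18, 20 and 16 counts in AdCtrl and 6, 54 and 54 in AdSirt4. These were the rows of the 7 that met the rule for detection. In CPM, AdSirt4 replicate 1 was the lowest sample in both, at 0.231 CPM for COL4A2-AS1 and 0.154 CPM for COL18A1-AS1. COL4A2-AS2 had 60 counts in all and COL18A1-AS2 20, while COL1A2-AS1, COL5A1-AS1 and COL25A1-DT were at 0 in every library. The protocol describes no step that keeps the strand, and whether the counting used strand is not given in the sources used here, so reads of COL4A2 or COL18A1 and of their antisense partners cannot be told apart.

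The transcript length that counts and FPKM imply varied most between libraries in 4 members. The ratio of the longest to the shortest was 2.97 for COL25A1 and 1.20 for COL19A1, neither of them detected, 1.47 for COL27A1 and 1.96 for COL28A1. For COL28A1 it ran from 5.10 kb in AdSirt4 replicate 1 to 10.004 kb in AdSirt4 replicate 3. It had 19, 11 and 6 counts in AdCtrl and 17, 58 and 22 in AdSirt4.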
